A study of Mus musculus with 4 samples.

Results

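The genes described here are SOCS1, SOCS2, SOCS3, SOCS5, SOCS6, SOCS7, LIF and PIM1, 8 of the 14884 genes that could be named on the arrays. A probe set counted as named only where the platform annotation gave it a single gene symbol. Each gene was taken by that symbol, and the probe set with the highest mean over the 4 arrays stood for the gene. The genes were chosen by their log2 signal, which had been seen to be higher after F5446 than in Ctrl, so their differences between the groups are given as a description and are not tested. The cells were SW620, a human colon carcinoma line grown in RPMI medium with 10% serum. F5446-treated cells received 50 nM of F5446, a compound that the labels call selective for SUV39H1, a methyltransferase of histone H3 lysine 9, for 2 days, and Ctrl cells were untreated. Each group held 2 arrays, numbered replicates 1 and 2. The series calls them biological replicates without stating separate cultures, so errors describe these arrays only. Each standard error (SE) uses a variance drawn toward the trend over all genes, so it can differ from a gene's own spread. It is smaller than the arrays alone would give for PIM1, LIF, SOCS2 and SOCS3, and slightly smaller for SOCS6 and SOCS7. For SOCS1 and SOCS5 it is larger. All arrays came from a single cancer line, and the sample records name mouse although the line and the probe annotation are human.

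Cytokines of the interleukin 6 family, among them LIF, bind receptors that activate JAK kinases, and the JAKs phosphorylate STAT transcription factors. STATs switch on genes that include SOCS1, SOCS3 and PIM1. SOCS proteins then bind the phosphorylated receptors or the JAKs and, through a carboxy-terminal SOCS box, recruit a ubiquitin ligase, which makes the loop a negative feedback. PIM1 is a serine/threonine kinase that is active once made and promotes survival and proliferation. In the intestinal epithelium SOCS3 is known as a limiter of STAT3-driven growth.

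PIM1 and LIF stood furthest apart between the groups. PIM1 (probe set 17008092) had log2 signals of 8.94 and 9.08 in F5446-treated cells, against 5.21 and 5.76 in Ctrl cells. The lowest treated array lay 3.17 above the highest Ctrl array, while the arrays of a group differed by 0.15 in F5446 and 0.55 in Ctrl. The difference of the means was 3.52 ± 0.16 on the log2 scale (SE), or 11.5-fold. In bulk RNA, a change in the share of cells that express a gene and a change in its RNA per cell cannot be told apart. LIF (probe set 16933760), the secreted cytokine of the set, had log2 signals of 8.93 and 8.85 in F5446-treated cells, against 6.23 and 5.69 in Ctrl cells. Both treated arrays again lay clear of the Ctrl arrays, by 2.62. The difference was 2.93 ± 0.16 (SE), or 7.61-fold. Among all 14884 genes, 12 had a log2 fold change as high as that of PIM1 or higher and 35 as high as that of LIF or higher, each gene counting itself.

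The 6 SOCS genes were higher by smaller amounts, with a median log2 fold change of 0.95. SOCS3 (probe set 16849400), whose protein blocks JAK activity at the shared receptor chain of interleukin 6 cytokines, had log2 signals of 7.39 and 7.25 in F5446-treated cells, against 5.40 and 6.32 in Ctrl cells. Its Ctrl arrays differed by 0.92, about as much as the 0.93 that separated the groups, and the log2 fold change was 1.46 ± 0.25 (SE). It was 1.0 without Ctrl replicate 1 and 1.92 without Ctrl replicate 2. A second, dimmer SOCS3 probe set (17117736) had log2 signals of 3.93 and 4.29 in F5446-treated cells, against 2.68 and 2.94 in Ctrl cells, a log2 fold change of 1.30. That probe set showed the same order of groups with Ctrl arrays that differed by 0.26. It lay under 4.43, the median probe set mean, on every array, so its difference may be understated. SOCS3 was the only gene of the 8 with a second named probe set.

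SOCS1 (probe set 16823866), the other SOCS protein that inhibits JAKs directly and a known brake on interferon signalling, had log2 signals of 5.73 and 5.49 in F5446-treated cells, against 4.73 and 4.79 in Ctrl cells. The groups were 0.70 apart, more than the arrays of either group, and the log2 fold change was 0.85 ± 0.15 (SE). SOCS2 (probe set 16755131), which restrains growth hormone signalling, had log2 signals of 5.52 and 5.003 in F5446-treated cells, against 4.76 and 4.73 in Ctrl cells. Here the treated arrays differed by 0.52, more than the gap of 0.24 to the Ctrl arrays. The log2 fold change of SOCS2 was 0.52 ± 0.19 (SE), and it was 0.26 without F5446 replicate 1 and 0.78 without F5446 replicate 2.

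SOCS5, SOCS6 and SOCS7, which have long amino-terminal regions and are tied more to receptor tyrosine kinase and insulin signalling than to cytokine induction, were 1.92-fold to 2.13-fold higher. SOCS5 (probe set 16879791) had log2 signals of 7.13 and 7.14 in F5446-treated cells, against 6.20 and 6.20 in Ctrl cells, with a log2 fold change of 0.94 ± 0.10 (SE). SOCS6 (probe set 16852997) had 7.31 and 7.51 in F5446-treated cells, against 6.39 and 6.52 in Ctrl cells, a log2 fold change of 0.96 ± 0.11 (SE). SOCS7 (probe set 16833616) had 8.18 and 7.98 in F5446-treated cells, against 7.05 and 6.93 in Ctrl cells, a log2 fold change of 1.09 ± 0.10 (SE). In each of these genes the gap between the groups, 0.79 to 0.94, was larger than the difference between the arrays of either group. Any pair among their log2 fold changes and that of SOCS1 differed by no more than the sum of the standard errors, so no order among these 4 genes can be read.

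**Figure D1:**
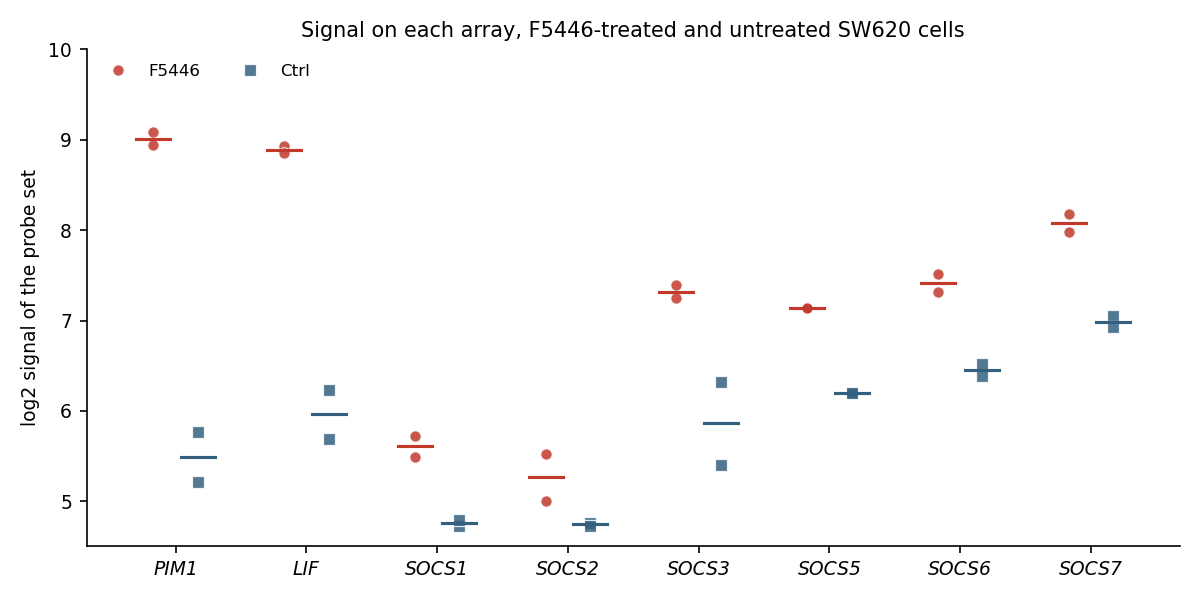
Log2 signal of the chosen probe set (vertical axis) of PIM1, LIF and the 6 SOCS genes on each of the 4 arrays, with F5446 as circles to the left and Ctrl as squares to the right of each gene; short lines are the means of 2 arrays. PIM1 and LIF are near 9 on the treated arrays and at 6.23 or lower on the Ctrl arrays, and the F5446 arrays of SOCS2 are the most spread among treated arrays. Signals of different genes are not comparable.

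In all 8 genes both F5446 arrays lay above both Ctrl arrays, which was so for 28.4% of all named genes. A difference of at least 2-fold upward was reached by 4 of the 8 (PIM1, LIF, SOCS3 and SOCS7), against 5.40% of all named genes. Since the genes were picked for this difference, nothing is read from these counts. The median log2 fold change was 1.02 over the 8 genes and -0.05 over all named genes. When the arrays were brought to equal medians over the named genes, all log2 fold changes moved up by about 0.13, and the median of the 8 became 1.15.

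The families hold 4 more genes that were measured and not picked. SOCS4, the closest relative of SOCS5, had log2 signals of 8.54 and 8.51 in F5446-treated cells, against 8.18 and 8.16 in Ctrl cells. Its log2 fold change was 0.35 ± 0.07 (SE). SOCS2, which was picked, had a larger difference than SOCS4, with a larger error. CISH, the founding SOCS family gene and a STAT5 target, had log2 signals of 5.42 and 5.51 in F5446-treated cells, against 5.48 and 5.21 in Ctrl cells, and these overlapped (log2 fold change 0.11 ± 0.15, SE). The kinase gene PIM2 overlapped as well, with 8.31 and 8.18 in F5446-treated cells, against 8.25 and 8.18 in Ctrl cells (log2 fold change 0.03 ± 0.08, SE). PIM3 rose 1.49-fold, with 7.76 and 7.89 in F5446-treated cells, against 7.29 and 7.21 in Ctrl cells (log2 fold change 0.57 ± 0.09, SE; limma adjusted p = 0.00084). Within the PIM family the log2 fold change thus ran from 0.03 in PIM2 to 3.52 in PIM1, and within the SOCS family from 0.11 in CISH to 1.46 in SOCS3.

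**Figure D2:**
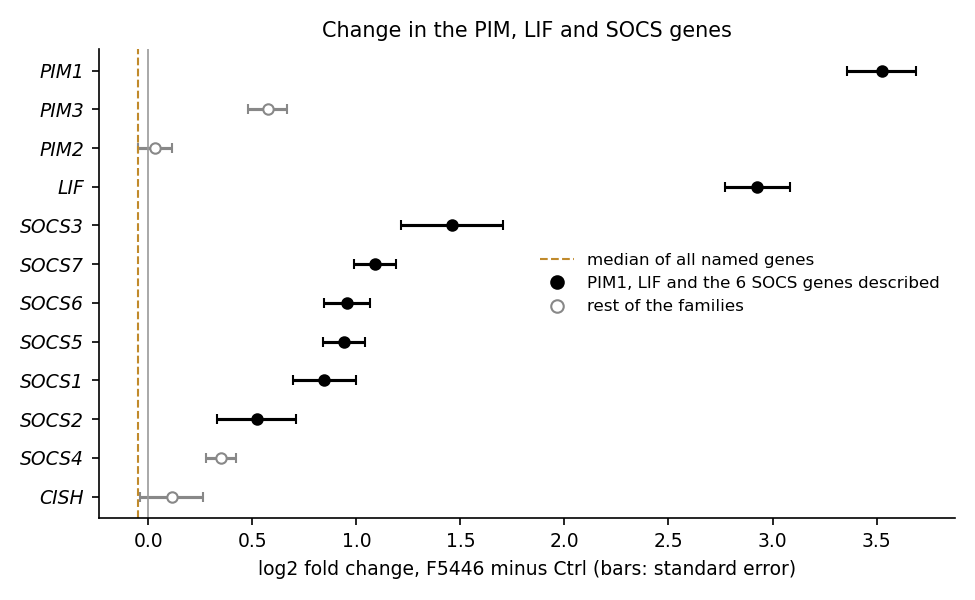
Log2 fold change, F5446 minus Ctrl (horizontal axis), of the PIM genes, LIF and the SOCS genes with CISH; bars are standard errors from the fit over all genes (2 arrays per group). Filled points are the 8 genes picked for their difference, open points the rest of the families, and the dashed line is the median of all named genes at -0.05. PIM1 and LIF lie at 3.52 and 2.93, apart from the SOCS genes.

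The genes nearest in pattern were found by the distance, over the 4 arrays, between log2 signals less each gene's mean. Genes whose mean log2 signal was more than 1 below that of the gene compared were left out. Nearest to PIM1 was IL6R, the interleukin 6 receptor gene, at a distance of 0.35, followed by the transcription factor gene HIVEP2 at 0.40. Nearest to LIF were DDIT3, which encodes the stress-induced factor CHOP, at 0.19, and HSD17B2, a steroid dehydrogenase gene, at 0.20. Nearest to SOCS3 were the transcription cofactor gene LBH at 0.11 and the RNA-binding protein gene RBPMS2 at 0.35. LBH had log2 signals of 6.78 and 6.79 in F5446-treated cells, against 4.89 and 5.81 in Ctrl cells, so it was lower on Ctrl replicate 1 than on Ctrl replicate 2, as SOCS3 was. With 4 arrays in 2 groups, such distances mostly reflect the size of the group difference.

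Among the other genes of the pathway, 202 symbols were listed and 125 were measured. Of these, 42 rose (33.6%) and 19 fell (15.2%) in limma's test with Benjamini-Hochberg adjustment over all 14884 genes at a threshold of 0.05. Of all named genes 18.2% rose and 22.7% fell, and the counts of each list below are to be read beside these shares. The lists were drawn up with earlier results of these data known, so these shares are a description. The median log2 fold change of the 125 genes was 0.07. At equal array medians the counts over all named genes turned from 2714 higher and 3372 lower to 3420 higher and 2735 lower, while those of the pathway genes became 46 and 17.

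Of the interleukin 6 family, 11 of 18 listed cytokines and receptors were measured. Of these 2 rose (18.2%, against 18.2% of all named genes) and the other 9 did not pass. IL6R, which encodes the ligand-binding chain of the interleukin 6 receptor, rose 10.5-fold. Its log2 signals were 9.40 and 9.54 in F5446-treated cells, against 6.02 and 6.12 in Ctrl cells (log2 fold change 3.40 ± 0.09, SE; limma adjusted p = 2.44e-08). IL11, a cytokine that signals through the same shared chain, rose 4.04-fold, with 7.62 and 7.47 in F5446-treated cells, against 5.38 and 5.68 in Ctrl cells (log2 fold change 2.02 ± 0.13, SE; limma adjusted p = 2.80e-06). The treated arrays of both genes lay far above the Ctrl arrays.

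The receptor gene for LIF itself did not pass. LIFR had log2 signals of 2.79 and 3.04 in F5446-treated cells, against 3.32 and 2.89 in Ctrl cells (log2 fold change -0.19 ± 0.20, SE; limma adjusted p = 0.54). These values lay under 4.43, the median probe set mean, which served as the limit of the dim-gene filter, and a difference in such a gene may be understated. OSMR, the oncostatin M receptor gene, was as dim, with 3.38 and 2.88 in F5446-treated cells, against 3.40 and 3.03 in Ctrl cells (log2 fold change -0.08 ± 0.22, SE). The cytokine genes IL27, EBI3, OSM, CTF1 and IL31 and the receptor genes CNTFR and IL31RA did not pass, with log2 fold changes from -0.13 (CTF1) to 0.12 (CNTFR). Of these, IL31 and IL31RA also lay under 4.43 on every array. The genes of interleukin 6 and of the shared receptor chain, IL6 and IL6ST, had no named probe set and were not analysed here.

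Of 8 measured JAK kinase and STAT genes, 5 rose and the other 3 did not pass, with a list median of 0.39. JAK2, the kinase of many cytokine receptors, rose 2.64-fold, with log2 signals of 6.60 and 6.65 in F5446-treated cells, against 5.31 and 5.14 in Ctrl cells (log2 fold change 1.40 ± 0.13, SE; limma adjusted p = 2.11e-05). JAK1, the main kinase of the interleukin 6 family receptors, rose 1.24-fold, with 9.52 and 9.50 in F5446-treated cells, against 9.20 and 9.20 in Ctrl cells (limma adjusted p = 0.0025, with a range over the alternatives of 0.00028 to 0.051, the highest without an intensity trend). JAK3 (log2 fold change 0.11 ± 0.23, SE) and TYK2 (-0.20 ± 0.10, SE) did not pass, and JAK3 was dim, under 4.43 on every array.

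STAT3, the main factor downstream of LIF and interleukin 6, rose 1.69-fold. Its log2 signals were 9.54 and 9.51 in F5446-treated cells, against 8.89 and 8.65 in Ctrl cells (log2 fold change 0.75 ± 0.09, SE; limma adjusted p = 9.29e-05). STAT5A rose 1.75-fold, with 5.74 and 5.32 in F5446-treated cells, against 4.81 and 4.63 in Ctrl cells (limma adjusted p = 0.0049). Its limma adjusted p was 0.069 without F5446 replicate 1 and 0.053 without Ctrl replicate 2, in a range of 0.0020 to 0.069 over the alternatives. STAT5B had 6.39 and 6.83 in F5446-treated cells, against 6.22 and 6.08 in Ctrl cells, and its limma adjusted p of 0.042 was close to the threshold. It became 0.33 without F5446 replicate 2, 0.11 without Ctrl replicate 1 and 0.21 without Ctrl replicate 2, in a range of 0.012 to 0.33 over the alternatives. STAT4, under 4.43 on every array, did not pass (log2 fold change 0.16 ± 0.21, SE). The list's count of rises was 3 without Ctrl replicate 2 and 3 without an intensity trend.

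**Figure D3:**
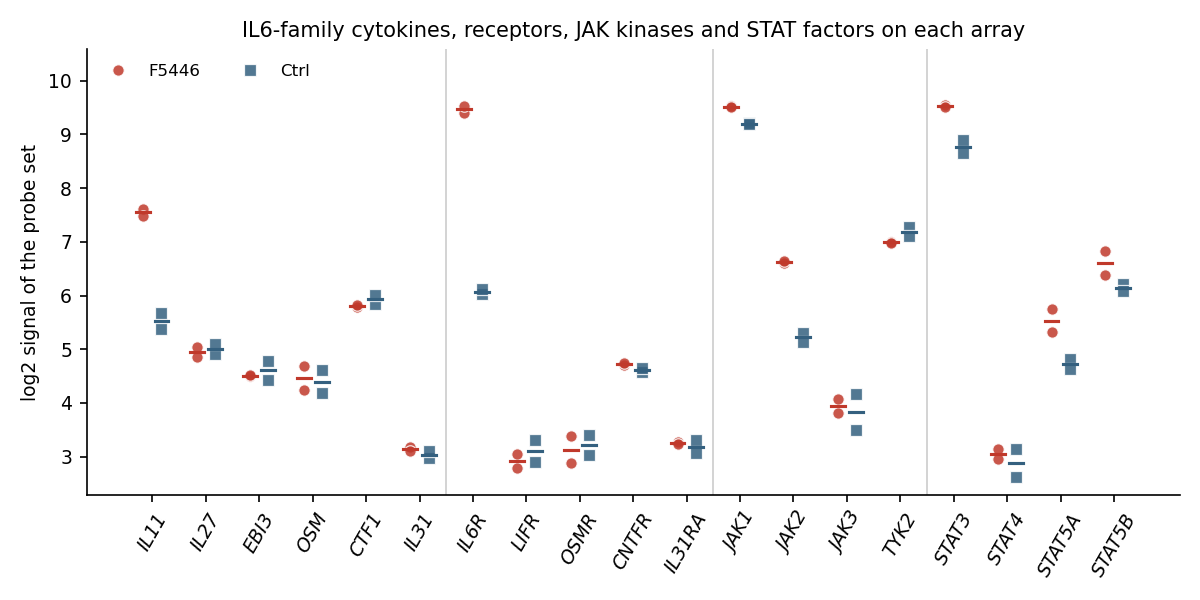
Log2 signal (vertical axis) on each array of the measured interleukin 6 family cytokine genes, receptor genes, JAK kinase genes and STAT genes, divided by vertical lines; F5446 arrays are circles to the left and Ctrl arrays squares to the right of each gene, with short lines at the means of 2 arrays. IL6R, IL11 and JAK2 show the widest gaps, and LIFR, OSMR, IL31, IL31RA, JAK3 and STAT4 stay under 4.43 on every array.

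Of 15 measured genes of other receptors that use JAKs, 3 rose (20%) and 2 fell (13.3%), with a median log2 fold change of -0.04. Over all named genes the shares were 18.2% and 22.7%. IL7R, which encodes the interleukin 7 receptor chain, fell 2.55-fold (limma adjusted p = 0.00014). Its log2 signals were 3.70 and 3.68 in F5446-treated cells, against 5.16 and 4.93 in Ctrl cells. The treated signals were under 4.43, so the fall may be understated. IL20RB, a chain of the receptors for interleukins 20 and 24, rose 1.79-fold, with 6.37 and 6.41 in F5446-treated cells, against 5.53 and 5.57 in Ctrl cells (limma adjusted p = 0.00037). The leptin receptor gene LEPR fell 1.49-fold (limma adjusted p = 0.0059) and IFNGR2, a chain of the interferon gamma receptor, rose 1.41-fold (limma adjusted p = 0.0041). Without F5446 replicate 2 their limma adjusted p was 0.067 and 0.062, which left 1 gene higher and 1 lower on this list. LEPR was at 0.053 without Ctrl replicate 1, which also left 1 gene lower. Over all alternatives the limma adjusted p ran from 0.0035 to 0.067 for LEPR and from 0.00090 to 0.062 for IFNGR2. With dim genes left out, IL7R was not tested and 1 gene fell.

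Other brakes on JAK signalling were thinly covered, with 3 of 16 listed genes measured. PDLIM2, which in mouse T cells promotes the degradation of STAT4, rose 2.20-fold, with log2 signals of 7.06 and 7.24 in F5446-treated cells, against 5.999 and 6.04 in Ctrl cells (limma adjusted p = 3.74e-05). SOCS4 passed as well and CISH did not. The PIAS genes and the tyrosine phosphatase genes of the list had no named probe set and were not analysed here. Probe sets annotated with several symbols were left out, so such gaps need not be gaps of the array.

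SOCS boxes bind elongins and cullin 5 to form a ubiquitin ligase. Of its 11 listed subunits and partners 4 were measured, and 1 rose. RNF7, the RING subunit that works with cullin 5, rose 1.32-fold, with log2 signals of 8.28 and 8.12 in F5446-treated cells, against 7.69 and 7.92 in Ctrl cells (limma adjusted p = 0.012). Its limma adjusted p was 0.14 without F5446 replicate 1, 0.093 without Ctrl replicate 1, 0.061 without an intensity trend and 0.068 with all probe sets tested, in a range of 0.0023 to 0.14 over the alternatives. The direction of the list depended on the scaling: at equal array medians 3 of the 4 rose, and after quantile normalization 1 rose and 1 fell. CUL5, the cullin itself, named after its value was seen, had a log2 fold change of 0.13 ± 0.07 (SE) and did not pass.

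Other proteins with a SOCS box, those of the SPSB, WSB and ASB families, went both ways: of 23 measured genes 6 rose and 3 fell, with a median of 0.02. WSB1, which pairs WD40 repeats with a SOCS box, rose 7.56-fold. Its log2 signals were 11.18 and 11.15 in F5446-treated cells, against 8.31 and 8.18 in Ctrl cells (log2 fold change 2.92 ± 0.06, SE; limma adjusted p = 1.05e-08). The log2 fold change of WSB1 was thus close to that of LIF and larger than that of any SOCS gene. SPSB1, which targets inducible nitric oxide synthase, rose 2.99-fold, and ASB1, with ankyrin repeats, rose 2.73-fold. ASB4, of the same ankyrin repeat family, fell 8.44-fold, with log2 signals of 3.98 and 3.84 in F5446-treated cells, against 6.93 and 7.04 in Ctrl cells (limma adjusted p = 3.17e-07). Its treated signals were under 4.43, so the fall may be understated.

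Of 41 measured genes reported as targets of STAT3 or STAT5, 13 rose and 6 fell, with a median log2 fold change of 0.07. DUSP10, a phosphatase that acts on p38 and JNK kinases, rose 11.1-fold, with log2 signals of 8.05 and 8.41 in F5446-treated cells, against 4.75 and 4.77 in Ctrl cells (limma adjusted p = 1.55e-07). BCL6, which encodes a transcriptional repressor, rose 5.69-fold, with 7.97 and 8.33 in F5446-treated cells, against 5.72 and 5.56 in Ctrl cells (limma adjusted p = 8.32e-07). BIRC5, which encodes the mitotic and anti-apoptotic protein survivin, fell 14.6-fold, with 5.63 and 4.99 in F5446-treated cells, against 9.07 and 9.30 in Ctrl cells (limma adjusted p = 4.52e-07). PROS1, which encodes the anticoagulant protein S, fell 7.20-fold. Its treated signals, 4.38 and 4.13, were under 4.43, so the fall may be understated. Among the acute-phase and antimicrobial targets of the list, named after their values were seen, FGA and LRG1 fell. FGA, which encodes the fibrinogen alpha chain, fell by 1.26 on the log2 scale (limma adjusted p = 0.00026). Its treated signals were under 4.43, so the fall may be understated. LRG1 fell by 0.72 (limma adjusted p = 0.0027). FGB, FGG, HP, A2M, LCN2, REG1A, REG1B, REG3A, S100A8 and S100A9 did not pass, with log2 fold changes from -0.33 (S100A9) to 0.22 (REG3A). All of these but LCN2 and S100A9 lay under 4.43 on every array, so a difference in them may be understated. The rest of the list's genes that passed are added after their values were seen. In order of size, the rises were VEGFA (4.69-fold), FOSL1, FOSL2, BCL3, MYC, MCL1, JUNB, KLF4, IER3, STAT3 and CCND1 (1.59-fold). The falls were FOS (1.47-fold) and ICAM1 (1.37-fold).

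Of 17 measured genes of the other PIM kinases and of PIM substrates, 4 rose and 7 fell, with a median of -0.17. MYB, a transcription factor that PIM1 can phosphorylate, fell 21.6-fold, with log2 signals of 4.17 and 4.60 in F5446-treated cells, against 9.01 and 8.62 in Ctrl cells (limma adjusted p = 1.41e-07). The treated MYB signal of 4.17 was under 4.43, so the fall of MYB may be understated. The cell cycle phosphatase genes CDC25C and CDC25A, whose proteins are PIM1 substrates, fell 5.999-fold and 1.92-fold. CXCR4, a chemokine receptor gene whose protein PIM1 phosphorylates, fell 1.88-fold. These 4 messages were lower on both treated arrays, and they were named for the size of their change. Other substrate genes, named after their values were seen, went the other way. FOXO1, AKT1S1 and EIF4B rose by 0.79, 0.63 and 0.28 on the log2 scale (limma adjusted p = 0.00029, 0.0010 and 0.0019).

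The last list held proteins that bind AU-rich or other elements in short-lived mRNAs such as those of cytokines and PIM1, and control their decay or translation. Of 8 measured genes 7 rose and 1 fell, with a median log2 fold change of 0.66. RC3H2, which encodes the decay factor roquin 2, rose 2.16-fold, with log2 signals of 9.44 and 9.41 in F5446-treated cells, against 8.34 and 8.29 in Ctrl cells (limma adjusted p = 1.77e-06). ZC3H12C and ZC3H12A, of the regnase RNase family, rose 1.98-fold and 1.79-fold. TIAL1, a translational repressor gene, rose 1.71-fold by its brighter probe set, but its dim one had a log2 fold change of -0.47 (limma adjusted p = 0.046 when that one was used, in a range of 3.48e-06 to 0.34 over the alternatives). KHSRP, whose protein promotes decay, named after its value was seen, was the 1 gene that fell, by 0.73 on the log2 scale. The ZFP36 genes and ELAVL1, the best known of this class, had no named probe set here.

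**Figure D4:**
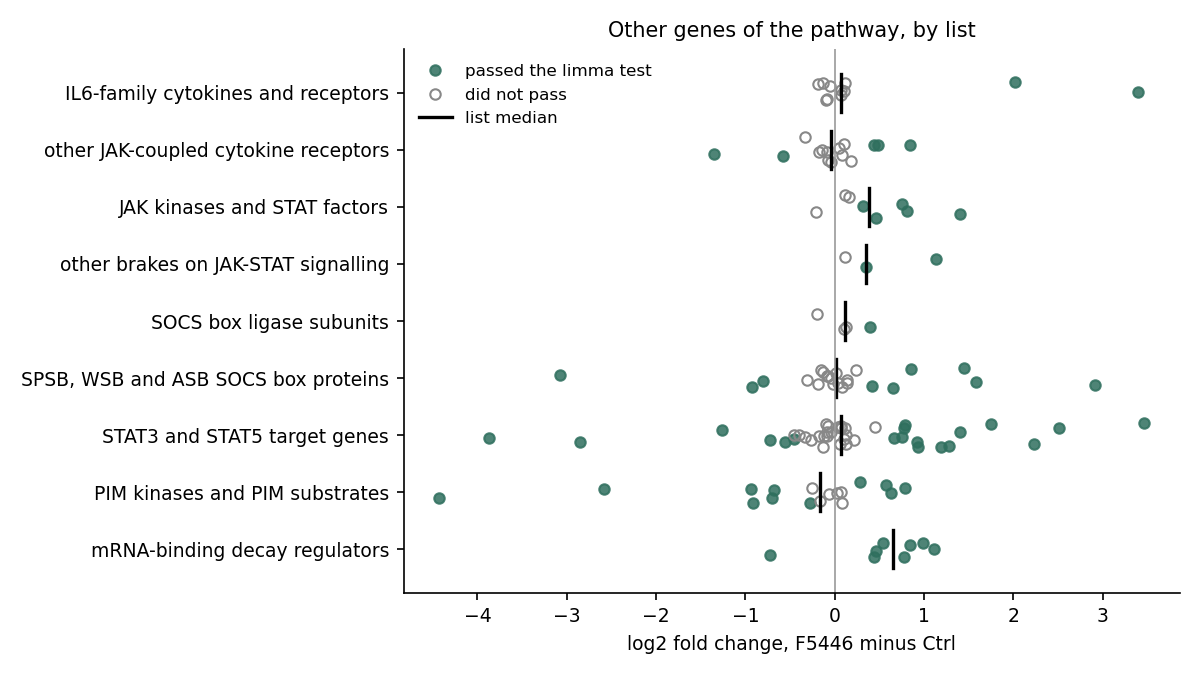
Log2 fold change, F5446 minus Ctrl (horizontal axis), of every measured gene on the 9 lists of other pathway genes (rows); filled points passed limma's test at an adjusted p under 0.05, open points did not, black bars are list medians, and points are spread vertically at random for legibility. JAK and STAT genes and the mRNA decay regulators lie mostly to the right of 0. So do the 3 other brakes on JAK signalling, of which CISH did not pass. The remaining lists lie on both sides.

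The arrays were checked against the labels and for other cells. SUV39H1, the target of F5446, fell 3.32-fold (limma adjusted p = 3.44e-07); the compound acts on the enzyme, so its message checks no label. Of 13 measured markers of colon epithelial cells, 11 lay above the dim limit, EPCAM, KRT8 and CDX2 among them, while KRT20 and TSPAN8 lay under it. That limit is the median probe set mean and not a detection call. The summed linear signal of the 13 was 5147 and 5197 in F5446-treated cells, against 9070 and 9016 in Ctrl cells. Of these markers 2 were higher and 7 lower, with a median log2 fold change of -0.56. Of 9 immune cell markers 1 rose (CD68) and 3 fell, with a median log2 fold change of -5e-06. CD4, CD8A, CD68, NKG7, PRF1 and LYZ lay at or above the dim limit, and CD2, CD14 and CSF1R under it. The summed signal of the 9, to which bright markers add most, was 3214 and 3154 in F5446-treated cells, against 1204 and 1196 in Ctrl cells. Of 6 stromal and endothelial markers 1 fell (LUM) and the other 5 did not pass, and their summed signal was 90.9 and 101.9 in F5446-treated cells, against 206.4 and 214.1 in Ctrl cells, with DCN, PECAM1, VWF and KDR under the dim limit. The part of these markers in the results above was not tested.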

How the data were processed

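The deposited values, 53617 probe sets on each of 4 arrays, were taken as log2 signal. The scale is not stated; log2 was inferred from the range of 0.71 to 13.8. Partek is named per the submitters' processing notes; the sources used here do not say how background was corrected or arrays normalized. Single-colour arrays were hybridised with biotin-labelled cDNA from total RNA, per the labels' protocols. Probe sets with a single gene symbol in the platform annotation were used as named, 16098 probe sets and 14884 genes. The rest, including any annotated with several symbols, were left out of the main fit. Sequences and genomic positions were not used here.

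Values were fitted as deposited with limma 3.58.1 in R 4.3.3 (group as the only term, intensity trend, 4 arrays), with Benjamini-Hochberg adjustment over all named genes at 0.05. Errors are standard errors of that fit, with each gene's variance drawn toward the trend over all genes. The fit was tested on simulated data. The array number, 2 per group, limits precision. The genes and the 9 lists were chosen with earlier results of these data known. Genes named are the 8, the rest of both families, SUV39H1, the measured interleukin 6 family, JAK and STAT genes, and up to 4 per other list with the largest change among those called whose groups did not overlap; genes named outside this rule are marked in the text. Same-numbered arrays did not deviate together (r = 0.044 over 14884 genes), so replicate numbers were not used as pairs.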

Additional observations from a re-analysis of the deposited data

How the results depend on the processing

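The 8 genes stayed higher after F5446 under all 13 alternatives, and their lowest log2 fold change was 0.26 (SOCS2 without F5446 replicate 1). Leaving out an array could not reverse them, since both treated arrays lay above both Ctrl arrays in each gene. The test settings, the dim-gene filter and the replicate block left these values as they were. The choice of probe set touched SOCS3 alone. Nothing is therefore read from the genes staying higher. The median of the 8 genes, 1.02, became 1.15 at equal array medians over the named genes, which adds a like shift to every gene. It ran from 0.97 to 1.08 without single arrays. With all probe sets tested, named or not, 6274 probe sets were higher and 5483 lower, against 2714 and 3372 named genes, since more features enter the count. The pathway counts of 42 higher and 19 lower ran from 38 to 40 and from 15 to 20 without single arrays. With the replicate block they were 42 and 19, with 2722 and 3342 over all genes, and the block took the call of STAT5B (adjusted p = 0.070) and no other named call. STAT5B also missed after quantile normalization (adjusted p = 0.065), with all probe sets tested (0.14) and in the fit without an intensity trend (0.095). TIAL1 did not pass by the mean of its probe sets (adjusted p = 0.34) and was reversed by its dimmer one (log2 fold change -0.47); the cause was not tested. Of 590 combinations of a named gene outside the 8 and an alternative, 571 kept their side of the threshold. The table has no detection calls, so dim genes such as LIFR and OSMR limit what a lack of change can show.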
